A study of Arabidopsis thaliana with 12 samples.

Results

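The data described here are for 5 nuclear genes of Arabidopsis thaliana for making, folding and inserting chloroplast proteins, each measured by 1 probe, of 3439 probes on the array. They are PRPL5 (AT4G01310) and PRPL17 (AT3G54210), for proteins of the large subunit of the plastid ribosome, Cpn60beta3 (AT5G56500) and Cpn60beta4 (AT1G26230), for chaperonin subunits, and SECE1 (AT4G14870), for a subunit of the thylakoid Sec translocase. They were chosen from single-gene probes with their values in these same samples known. Their differences between the groups are therefore given as a description, and adjusted p-values for them are not read as tests. The samples were total RNA of wild-type plants, ecotype C24. Plants of both groups grew under a light that favours photosystem I (PSI-specific, here PSI light), and those of 1 group were also treated with DCMU, which blocks electron transfer out of photosystem II. Each group had 6 array columns. The sources used here do not give plant age, tissue, dose or length of treatment, so no tissue markers were checked.

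Chloroplasts carry ribosomes of the bacterial type, which translate the proteins encoded in the plastid genome, among them core subunits of both photosystems. Most proteins of these ribosomes are encoded in the nucleus, made in the cytosol and imported. Barrel-shaped Cpn60 chaperonins in the stroma, built from alpha and beta subunits and related to bacterial GroEL, fold new and imported proteins, Rubisco subunits among them. The Sec translocase of the thylakoid, formed by SCY1 and SECE1 and driven by the motor SECA1, carries proteins into or across the thylakoid membrane.

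The deposited values were intensities relative to the brightest probe of a column. The column median lay between 0.542 and 0.584 in PSI light, and between 0.386 and 0.504 in the DCMU group. Within a group, columns 1 and 2, 3 and 4, and 5 and 6 deviated from the group mean together (r = 0.464 to 0.728). For other pairs of columns r was -0.542 to -0.202, though taking away the group mean itself lowers r. Spearman's correlation of the deposited values was 0.921 to 0.96 for other pairs of a group. For columns 1 and 2, 3 and 4, and 5 and 6 it was 0.976 to 0.991. Each such pair was counted as 1 hybridisation, which leaves n = 3 per group; the labels do not say this, nor that samples came from separate cultures, so spreads and p-values may be technical. Levels below are quantile-normalised relative intensities on the log2 scale, no lower than a floor of -3.19, and differences are DCMU minus PSI light. In bulk RNA, fewer cells of a type and less transcript per cell cannot be told apart.

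The 5 genes did not share a direction. PRPL5, Cpn60beta3 and Cpn60beta4 were 1.59-fold, 1.79-fold and 2.17-fold higher with DCMU, and PRPL17 and SECE1 were 1.60-fold and 1.61-fold lower. Thus 1 of the 2 ribosomal genes was higher and the other lower, and both chaperonin genes were higher. In limma's model of duplicate means, 4 of the 5 had an adjusted p under 0.05 (2 higher, 2 lower), where 43.1% of all 3439 probes did, with 18.1% higher and 25.0% lower. PRPL5 was the 1 that did not. In the 18 other settings that tested all 5 genes, 3 to 5 did, and PRPL17 was lost with the replicate block and without DCMU columns 1 and 2 or 3 and 4. After normalisation the 6 columns of each group did not overlap for any of the 5, nor for 43.5% of all probes, with 18.5% higher and 25.0% lower. Nothing is read from these counts, because the same contrast chose the genes. Ranked by their difference among all probes, the 5 stood at percentiles 20.1 (SECE1), 20.6 (PRPL17), 81.5 (PRPL5), 85.4 (Cpn60beta3) and 89.7 (Cpn60beta4), away from both ends of the ranking.

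**Figure D1:**
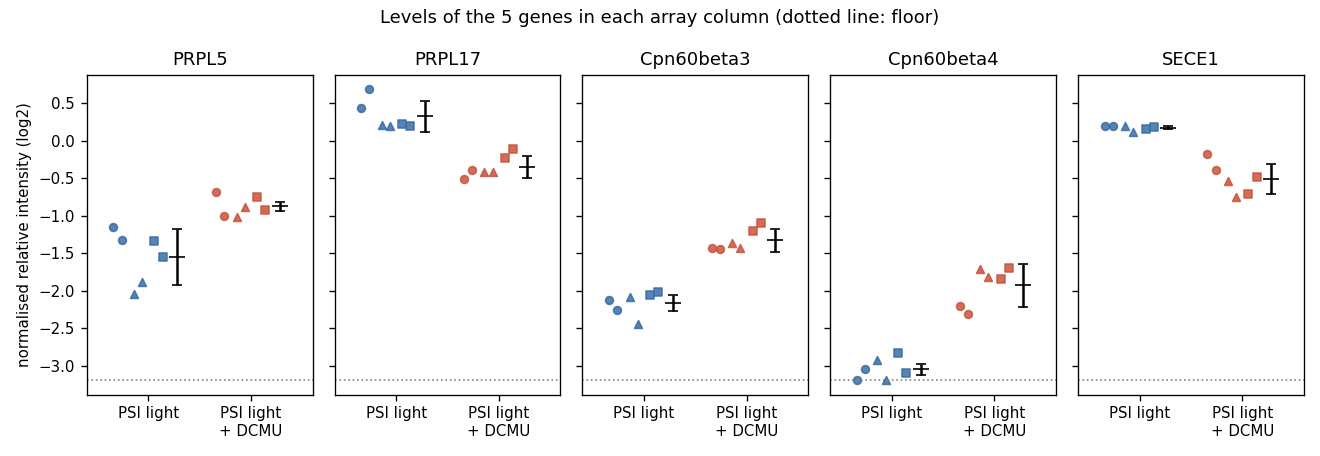
Normalised relative intensity (log2) of the 5 genes in each of the 12 columns, by group. Marker shapes show the 3 hybridisations of a group, with 2 columns each; black marks are means with SD over the 3 hybridisations, and the dotted line is the floor at -3.19. After normalisation the groups do not overlap for any of the 5, nor for 43.5% of all probes; before it those of PRPL5 overlap. The PSI light columns of Cpn60beta4 lie at or just above the floor.

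The ribosomal proteins differed in direction and in how evenly the hybridisations behaved. PRPL5 belongs to the family of ribosomal protein L5, which in bacteria binds the 5S rRNA of the large subunit. Its deposited intensity had a lowest, median and highest value of 0.282, 0.383 and 0.515 in PSI light and 0.406, 0.473 and 0.600 with DCMU. On this scale, before normalisation, the groups overlapped. After normalisation the 3 hybridisations stood at -1.24, -1.97 and -1.45 in PSI light and at -0.84, -0.95 and -0.84 with DCMU. The means were -1.55 ± 0.38 and -0.88 ± 0.06 (SD, n = 3), a difference of 0.67 (SE 0.20). The spread lay in PSI light, where the hybridisation of columns 3 and 4 was the lowest, and without it the difference was 0.47.

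PRPL17, of the family of ribosomal protein L17, showed the opposite direction. Its deposited intensity ran from 1.25 through a median of 1.29 to 1.82 in PSI light and from 0.638 through 0.664 to 0.729 with DCMU, so the groups were apart before normalisation too. After it the hybridisations stood at 0.56, 0.20 and 0.21 in PSI light and at -0.45, -0.42 and -0.18 with DCMU. The means went from 0.33 ± 0.20 to -0.35 ± 0.15 (SD, n = 3), a difference of -0.68 (SE 0.14). The first PSI light hybridisation was the highest, and without it the difference was -0.56.

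Both chaperonin genes were higher with DCMU. Cpn60beta3 encodes a beta subunit of the plastid chaperonin. Its deposited intensity had a lowest, median and highest value of 0.211, 0.229 and 0.274 in PSI light and 0.329, 0.357 and 0.375 with DCMU. Normalised levels of the hybridisations were -2.18, -2.26 and -2.04 in PSI light and -1.43, -1.39 and -1.15 with DCMU. All 3 DCMU hybridisations lay above all 3 in PSI light, and the means were -2.16 ± 0.11 and -1.33 ± 0.15 (SD, n = 3). The difference was 0.84 (SE 0.10).

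Cpn60beta4 encodes another beta subunit, which in Arabidopsis is known for folding NdhH, a subunit of the chloroplast NDH complex of cyclic electron flow. Its deposited intensity was low: 0.085, 0.119 and 0.160 as lowest, median and highest value in PSI light, and 0.216, 0.237 and 0.295 with DCMU. The normalised hybridisations stood at -3.11, -3.06 and -2.96 in PSI light and at -2.26, -1.76 and -1.77 with DCMU. Its mean went from -3.04 ± 0.07 to -1.93 ± 0.28 (SD, n = 3), a difference of 1.12 (SE 0.16). In PSI light 2 of the 6 columns were at the floor, which narrows the spread there and understates the difference. With the floor at the 10th percentile of positive values the difference was 0.67, and with it at the 1st percentile 1.24. In the DCMU group the hybridisation of columns 1 and 2 was the lowest for both chaperonin genes after normalisation. In the deposited intensities, DCMU columns 1 and 2 of Cpn60beta3 were instead the highest of the group, at 0.375 and 0.367. RefSeq (TAIR10.1) lists 5 transcripts for Cpn60beta4 and 2 for Cpn60beta3, and the sources used here do not say which of them a probe detects.

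SECE1, the small membrane subunit that pairs with SCY1 in the channel of the translocase, was lower with DCMU. Its deposited intensity was 1.21, 1.25 and 1.36 as lowest, median and highest value in PSI light and 0.471, 0.570 and 0.845 with DCMU. The PSI light hybridisations were close to each other, at 0.19, 0.16 and 0.17, and those with DCMU stood at -0.28, -0.65 and -0.60. All 6 DCMU columns lay below all 6 in PSI light. The mean went from 0.17 ± 0.02 to -0.51 ± 0.20 (SD, n = 3), a difference of -0.68 (SE 0.11). The spread of this gene lay in the DCMU group, and without DCMU columns 1 and 2 the difference was -0.81.

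The sizes of these differences depend on how the arrays are set against each other. Over all probes the median difference was -0.06 with quantile normalisation, and it shifted to -0.32 without scaling and to -0.23 when column totals were made equal. With no scaling PRPL5 was 0.33, Cpn60beta3 0.60, Cpn60beta4 1.01, PRPL17 -1.05 and SECE1 -1.07, so each of the 5 moved down, as the median did. Differences between 2 genes of the same arrays were therefore set side by side as well. The difference of PRPL5 stood 1.35 above that of PRPL17 after quantile normalisation and 1.38 above it with no scaling. That of Cpn60beta3 stood 1.52 and 1.67 above that of SECE1. The gap between Cpn60beta4 and SECE1 was 1.80 and 2.08. The genes of each pair were taken for their opposite signs in these data, so the sign of the gap was fixed in advance. None of the 5 changed sign in the 19 other settings tried (18 for PRPL5, Cpn60beta3 and Cpn60beta4, which are dim), but the genes were chosen with their direction known.

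**Figure D2:**
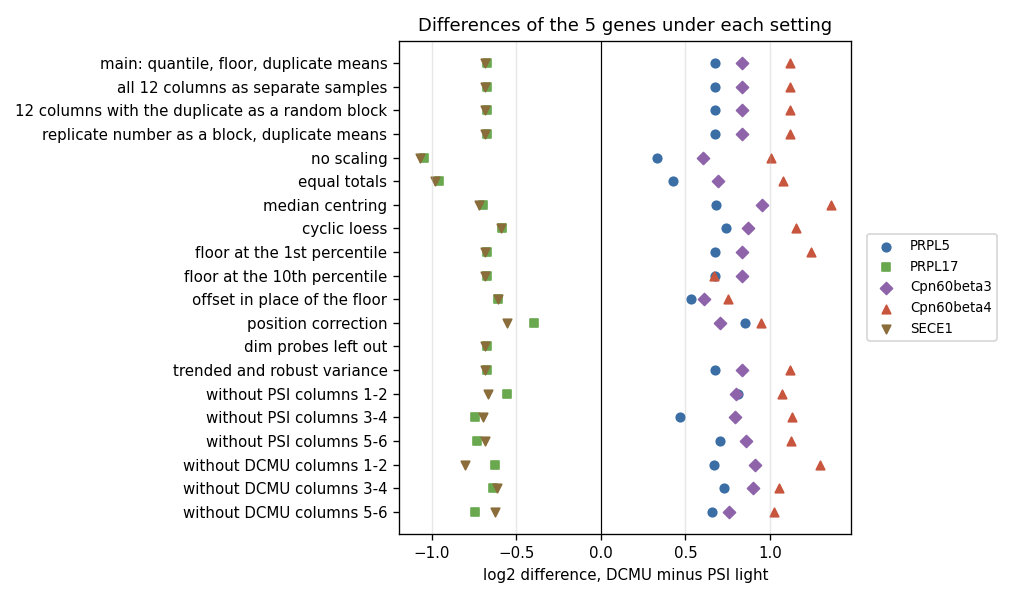
Log2 difference (DCMU minus PSI light) of each of the 5 genes in the main model and 19 other settings, 1 row per setting and 1 marker per gene. PRPL17 and SECE1 lie left of 0 and the other 3 right of it in each row; the genes below the median brightness have no marker where dim probes were left out. PRPL5 ranges from 0.33 to 0.85 and PRPL17 from -1.05 to -0.40.

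Across all probes, the differences of probes next to each other in the numbering correlated at r = 0.204 (3438 pairs, which share the same columns). The 10 probes on each side of each gene are therefore given. Of all 3439 probes, 25.0% passed lower and 18.1% higher, the shares to set beside the counts of neighbours below. Around PRPL5 the median difference of the 20 neighbours was -0.58, opposite to PRPL5 itself, with 8 of the 20 lower and 0 higher past the threshold. Around PRPL17 it was -0.56, close to the gene's own -0.68, with 7 lower and 2 higher. Around SECE1 it was -0.39, with 9 lower and 1 higher. The neighbours of Cpn60beta3 had a median of -0.04, with 5 higher and 3 lower. Those of Cpn60beta4 had a median of 0.25, with 8 higher and 0 lower. After a running median along this numbering was removed from each column, PRPL5 stood at 0.85, Cpn60beta3 at 0.70, Cpn60beta4 at 0.94, SECE1 at -0.55 and PRPL17 at -0.40. The part of array position in the differences was not tested further.

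**Figure D3:**
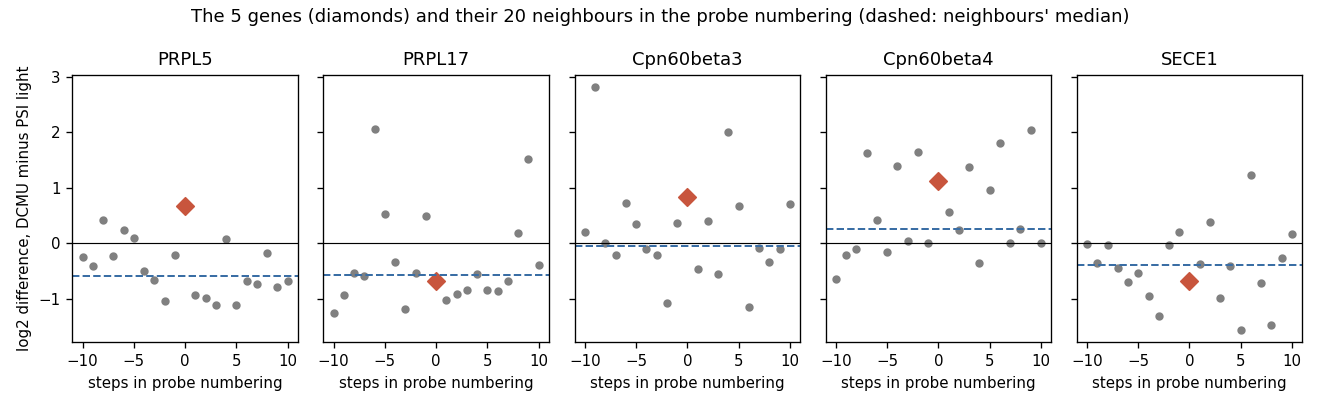
Log2 difference (DCMU minus PSI light) of each of the 5 genes (diamonds) and of the 10 probes before and after it in the probe numbering (grey points); the dashed line is the median of these 20. PRPL5 lies at 0.67 where its neighbours' median is -0.58, and PRPL17 lies at -0.68 where theirs is -0.56.

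The other genes of the same processes were taken from lists of 142 loci for the plastid ribosome, plastid translation factors, chaperones, thylakoid targeting, envelope import and plastid proteolysis. Of the 142, 13 had a single-gene probe, the 5 genes above and 8 others; no gene of envelope import and none of thylakoid targeting other than SECE1 had one. A further 8 probes matched several genes, among them a listed one, and are not named. Of the 8 other genes, PRPL29 lay above the floor in no column, so it allows no comparison, and ATAB2 lay above it in DCMU columns alone, so its difference has no measured size. Of the other 6, BSD2 rose, CLPS1 fell and 4 did not pass in limma's model of duplicate means (adjusted p under 0.05 over all probes), next to 18.1% of all probes that passed higher and 25.0% that passed lower. The median difference was -0.59 over these 6, which had values in both groups. Over the 7 other listed genes above the floor in at least 1 column, ATAB2 included, it was -0.52. Over the 3272 probes that met this same condition it was -0.10. The lists too were chosen with earlier results of these data known, and the adjusted p-values of listed genes carry that limit.

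BSD2 (AT3G47650), for a zinc-finger chaperone of the DnaJ type that acts in Rubisco assembly, rose 1.87-fold. Its hybridisations stood at 0.21, 0.26 and 0.11 in PSI light and at 1.19, 1.24 and 0.86 with DCMU. The groups did not overlap, and the difference was 0.91 (SE 0.12, adjusted p = 0.00497, limma). It passed in all 19 other settings (0.63 to 0.99). Among the listed plastid chaperone genes with a single-gene probe, the other one besides the Cpn60 genes was TIG1 (AT5G55220), for the trigger factor that binds new chains at the ribosome. It stood at -1.92, -2.03 and -2.12 in PSI light and at -3.16, -2.63 and -2.30 with DCMU. Its difference of -0.68 (SE 0.23) did not pass (adjusted p = 0.0737, limma), though it did in 8 of 18 other settings.

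CLPS1 (AT1G68660), for an adaptor that delivers substrates to the Clp protease, fell 1.58-fold. It stood at 0.43, 0.24 and 0.65 in PSI light and at -0.33, -0.32 and -0.01 with DCMU (difference -0.66, SE 0.15, adjusted p = 0.0221, limma). The 20 neighbours of its probe had a median difference of -0.57, with 9 lower and 0 higher, next to 25.0% and 18.1% of all probes. The groups did not overlap, but the call was lost without PSI light columns 1 and 2, PSI light columns 5 and 6, DCMU columns 1 and 2 or DCMU columns 3 and 4 (adjusted p = 0.0523 to 0.0705, limma). ATAB2 (AT3G08010), for an RNA-binding protein needed for translation of photosystem mRNAs, had all 6 PSI light columns and 1 DCMU column at the floor. Its deposited intensities overlapped between PSI light (0.039 to 0.122) and DCMU (0.081 to 0.132). It passed the threshold (adjusted p = 0.0472, limma), but the floor set both its spread in PSI light and the size of its difference. That size was 0.15 with the floor used here, 1.04 with the floor at the 1st percentile and 0 with it at the 10th, and it passed in 4 of 18 other settings.

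Of the other ribosomal genes, PRPS6, PRPL34 and PRPS10 had values and did not pass. PRPS6 (AT1G64510), of the small subunit, stood at -1.81, -1.62 and -1.29 in PSI light and at -2.82, -2.42 and -1.85 with DCMU, a difference of -0.79 (SE 0.29, adjusted p = 0.0883, limma). It passed in 7 of 18 other settings. PRPL34 (AT1G29070), of the large subunit, had a difference of -0.52 (SE 0.26, adjusted p = 0.175, limma), and PRPS10 (AT3G13120), of the small subunit, of -0.24 (SE 0.28, adjusted p = 0.535, limma). PRPL29 (AT5G65220), of the large subunit, was listed at 0 in all 12 columns and has no difference. The word chaperone also matched CCS, for the copper chaperone of superoxide dismutase, which does not fold proteins in this way. CCS had a difference of -0.40 (SE 0.12, adjusted p = 0.0474, limma) and passed in 4 of 18 other settings. The 20 neighbours of its probe had a median difference of -0.51, with 12 lower and 1 higher. With the position correction the difference of CCS was -0.18 (adjusted p = 0.308, limma).

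**Figure D4:**
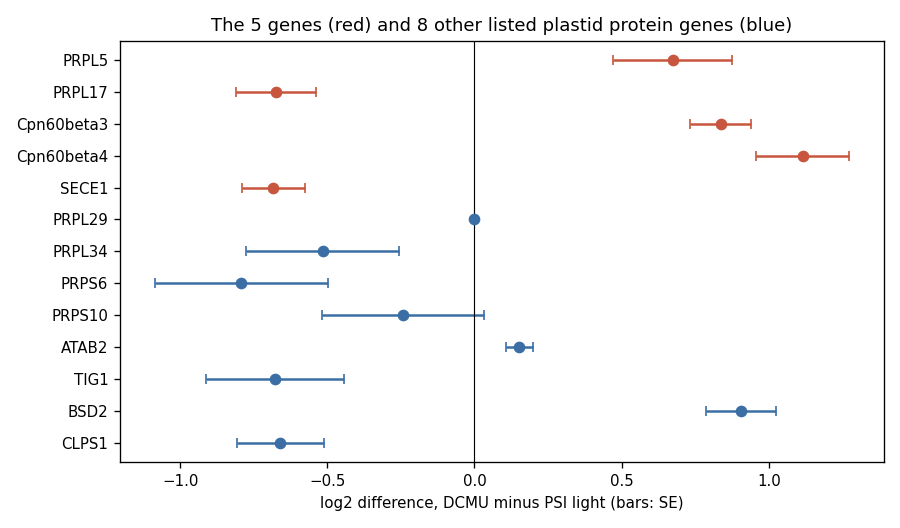
Log2 difference (DCMU minus PSI light) with its SE for the 5 genes (red) and the 8 other listed genes with a single-gene probe (blue). BSD2 lies at 0.91, and PRPS6, PRPL34 and PRPS10 lie below 0. PRPL29 is drawn at 0 without a bar because all its columns are at the floor, and the place of ATAB2 at 0.15 is set by the floor.

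For each of the 5 genes, the genes most like it were sought among 614 other single-gene probes, by Pearson's r of the normalised log2 values over the 12 columns. These columns fall into the 2 groups, so r mostly follows the difference between them. Most like PRPL5 were AT3G22150 (r = 0.964), AT3G50130 (0.963) and MAMI (0.954). Most like PRPL17 were LPA19 (0.970), for a photosystem II assembly factor, AT1G02020 (0.958) and AT2G04360 (0.949). Cpn60beta3 was closest to AT3G58830 (0.973), AT1G32520 (0.966) and AT3G06870 (0.963), and Cpn60beta4 to AT3G29185 (0.976), AT1G32520 (0.966) and AT4G08940 (0.965). AT1G32520, which was higher with DCMU by 1.66 on the log2 scale, thus stood among the 3 closest to both chaperonin genes. SECE1 was closest to AT2G28790 (0.972), AT2G43990 (0.962) and AT3G13180 (0.958).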

How the data were processed

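Total RNA of 12 Arabidopsis samples was measured on 1-channel arrays. The deposited relative intensities were linear and scaled to the brightest probe of each column; the sources used here give no other step by the authors. Intensities were quantile normalised, raised to a floor of 0.110, the 5th percentile of positive values, and turned to log2. Columns 1 and 2, 3 and 4, and 5 and 6 of a group were averaged as duplicates. All 3439 probes were fitted with limma 3.58.1 (R 4.3.3, statmod 1.5.0) as DCMU minus PSI light, with p-values adjusted by Benjamini-Hochberg over all probes and called under 0.05. Arrays have no read depth, and their number limits the precision.

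The model was also run on simulated data in which 200 of 3439 probes were changed, a far smaller share than was called in the real data. It recovered 14.9% of log2 changes of 0.5, 62.7% of changes of 1 and 95.5% of changes of 2. Of its calls, 5.74% were false. With so few probes changed, the Benjamini-Hochberg adjustment is stricter, so these rates do not give the recovery in the real data. A gene of this report that did not pass may still differ.

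Genes came from the platform annotation, updated by gene identifier with RefSeq TAIR10.1. Of the probes, 692 had a single gene, 870 matched more than 1 and 1877 are unnamed. For the PRPL and PRPS genes, TIG1, BSD2 and CLPS1 the names are those of the lists, since RefSeq gives another symbol or none. The members, gene lists and alternatives were chosen with earlier results of these data known. The text names the 5 genes, each listed gene with a single-gene probe, further matches of set words (ribosomal protein, tRNA ligase, translation factor, chaperone, translocation) in RefSeq names, which gave CCS alone, and the 3 single-gene probes most correlated with each of the 5 and at the floor in at most 3 columns. The set words were sought in RefSeq symbols and synonyms alone. Ribosomal protein, tRNA ligase and translation factor matched 0 probes there, although ribosomal genes of the lists had probes. This word search therefore cannot show that the array holds no further genes of these kinds. Promoter and protein sequences were not used here, and the planned motif search was not run. Python 3.11.15 with matplotlib 3.10.9 drew the figures.

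Same-numbered duplicate means of the groups deviated together at r = 0.0989 to 0.306. As 1 of the 3 was below 0.1, the main model did not pair the samples by number. All 3 were positive, so these values do not settle whether the samples were paired. The numbers were used as a replicate block in 1 of the other settings.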

Additional observations from a re-analysis of the deposited data

How the results depend on the processing

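The 19 other settings were planned. Differences of the 5 genes moved by less than the larger of their 2 group SDs except as follows. With no scaling PRPL17 was -1.05, SECE1 -1.07 and Cpn60beta3 0.60. With equal totals PRPL17 was -0.96 and SECE1 -0.98. With an offset added instead of a floor Cpn60beta3 was 0.61 and Cpn60beta4 0.75, and Cpn60beta4 was 0.67 with the floor at the 10th percentile. With the position correction PRPL17 was -0.40 and ATAB2 changed sign to -0.14. Past the smaller pooled SD of both groups were also PRPL5 with no scaling (0.33), Cpn60beta3 with equal totals (0.69) and the position correction (0.70), and Cpn60beta4 with median centring (1.36). The causes were not tested.

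Of all probes, 1483 passed (624 higher, 859 lower), and 798 with dim probes left out, where fewer were tested. The division moved to 425 higher and 1172 lower with no scaling and to 474 and 1058 with equal totals. Of the 8 other listed genes, 3 passed, 1 of them ATAB2, whose difference the floor sets; 6 did over 12 separate columns, 5 with no scaling, 5 with the position correction, and 1 to 4 without 1 hybridisation. As a replicate block, the shared numbers left 1394 calls (580 higher, 814 lower) and 3 of the 8 listed genes; ATAB2 lost its call there (adjusted p = 0.095) and PRPS6 gained one (0.0279).

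Each gene rests on 1 probe and 3 hybridisations per group. Dim genes are limited by the floor, where 167 probes had no difference. In the 25 groups of 6 columns examined for the 5 genes, the listed genes and CCS, no column stood far from the others by Dixon's criterion. As the columns behave as duplicates, a deviating hybridisation would have its second column beside it. The criterion therefore cannot show whether a whole hybridisation stood apart.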
